A study of Sus scrofa with 6 samples.

Results

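ASB4 was examined as a single gene: every CpG that the deposited methylation tables place in its promoter, exons, introns or immediate flank was taken, and reads of both strands were summed. This gave 1450 of the 14116 CpGs of the tables, of which 1426 had a read and 1175 had at least 10 reads in every embryo. CpG methylation had been measured by whole-genome bisulfite sequencing, in which unmethylated cytosines read as T and methylated ones as C. The groups were 3 untreated control embryos and 3 parthenotes of a Landrace x Yorkshire x Duroc cross, all taken whole at embryonic day 21. Parthenotes are embryos grown from electrically stimulated oocytes without sperm, so their genome is of maternal origin only. The labels do not give their ploidy. The labels describe transfer of parthenogenetic embryos to 2 surrogate gilts 12 months old, give no such age for the mothers of the controls and do not say which embryos share a litter, so p-values cover only the spread between these embryos. A whole embryo mixes many cell types, and a level here is an average over all of them.

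ASB4 encodes an ankyrin repeat protein with a SOCS box, a domain through which such proteins serve as the substrate-binding part of cullin ubiquitin ligases. In the mouse the gene is imprinted and expressed from the maternal copy, and it lies at the far end of the imprinted cluster around Peg10 and Sgce. Imprinted clusters are usually governed by a control region that is methylated on 1 parental copy only, and other genes of a cluster can be imprinted without a methylation difference of their own. A stretch methylated only on the maternal copy would read near the middle in controls and near full in parthenotes, and one methylated only on the paternal copy would read near 0 in parthenotes.

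In the pig build Sscrofa11.1 ASB4 is annotated on the plus strand of chromosome 9, from 75110367 to 75337619, a span of 227 kb. Its start lies 636 kb beyond the start of PEG10 and 58.9 kb beyond PON2, the nearest gene on that side. RefSeq lists 9 transcripts for it. The tables place 25 of its CpGs in the promoter, which reaches back to 1986 bp upstream of the start, 27 in coding exons, 81 in 3′ UTRs, 1314 in introns and 3 just downstream. The 3′ UTR CpGs form 4 separate groups, at 91.3, 178, 190 and 226 kb from the start. PDK4, which encodes a kinase that restrains pyruvate dehydrogenase, lies on the opposite strand within the annotated span of ASB4, at 75246956 to 75260134. Of the intronic ASB4 CpGs, 47 are therefore also promoter CpGs of PDK4 and 35 are also intronic in PDK4. Embryos had 35943 to 40984 C-or-T reads over ASB4 CpGs, and the median depth per CpG was 26.0 to 29.0 reads.

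ASB4 was methylated at a high level in all 6 embryos, and the groups overlapped. Over all its CpGs the level, methylated reads over all reads, was 73.6%, 85.6% and 83.7% in controls 1 to 3 and 84.6%, 83.1% and 86.4% in parthenotes 1 to 3. Control 1 stood below the other 5 embryos, and controls 2 and 3 lay among the parthenotes. Parthenotes averaged 84.7% ± 1.63 and controls 81.0% ± 6.48 (SD, n = 3 each), which is 3.76 percentage points apart (2-sided exact permutation p = 0.5). With 3 against 3 embryos this test cannot give a p under 0.1. Without control 1 the difference was 0.06 points, and without control 2 it was 6.09 points. The 95% Wilson intervals of these levels reached at most 0.45 points to either side. Such intervals cover counting error only, and a read that spans several CpGs enters at each of them.

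The promoter as annotated was the most methylated of the 3 kinds of feature. Its level was 86.5%, 94.5% and 92.0% in controls and 90.5%, 94.1% and 93.1% in parthenotes (677 to 827 reads per embryo, Wilson intervals within 2.33 points). The group means of 90.99% ± 4.11 and 92.5% ± 1.84 (SD, n = 3 each) differed by 1.56 points, and control 1 was again the lowest embryo. The test of edgeR, fitted over the promoters, exon sets and intron sets of all genes in the interval, gave an adjusted p of 0.772. Within the promoter the 19 CpGs more than 1000 bp upstream were at 93.3% ± 4.12 in controls and 94.6% ± 1.52 in parthenotes (SD, n = 3 each). The 6 CpGs nearer to the start were at 82.3% ± 4.89 and 87.6% ± 2.81 (SD, n = 3 each). The promoter difference fell to 0.45 points without CpGs that carried a sign of a sequence variant and became -0.70 points without control 1. It was 6.98 points when the promoter was redrawn to span 1000 bp before and 500 bp after the start, which takes in the first coding exon (edgeR adjusted p = 0.769).

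Exons and introns lay lower than the annotated promoter. Exon CpGs, coding and 3′ UTR together, were at 73.2%, 88.0% and 85.8% in controls and 83.0%, 87.5% and 88.3% in parthenotes. Intron CpGs were at 73.3%, 85.2% and 83.3% in controls and 84.6%, 82.4% and 86.1% in parthenotes. In both sets control 1 was the lowest embryo, and controls 2 and 3 lay within the range of the parthenotes. The differences between group means were 3.87 points for exons and 3.81 points for introns (edgeR adjusted p = 0.718 for each). Without control 1 they were -0.69 and 0.16 points. The coding exons alone were at 82.5% ± 7.41 against 87.5% ± 3.89 and the 3′ UTRs at 82.3% ± 8.19 against 85.9% ± 2.58 (controls against parthenotes, SD, n = 3 each).

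**Figure D1:**
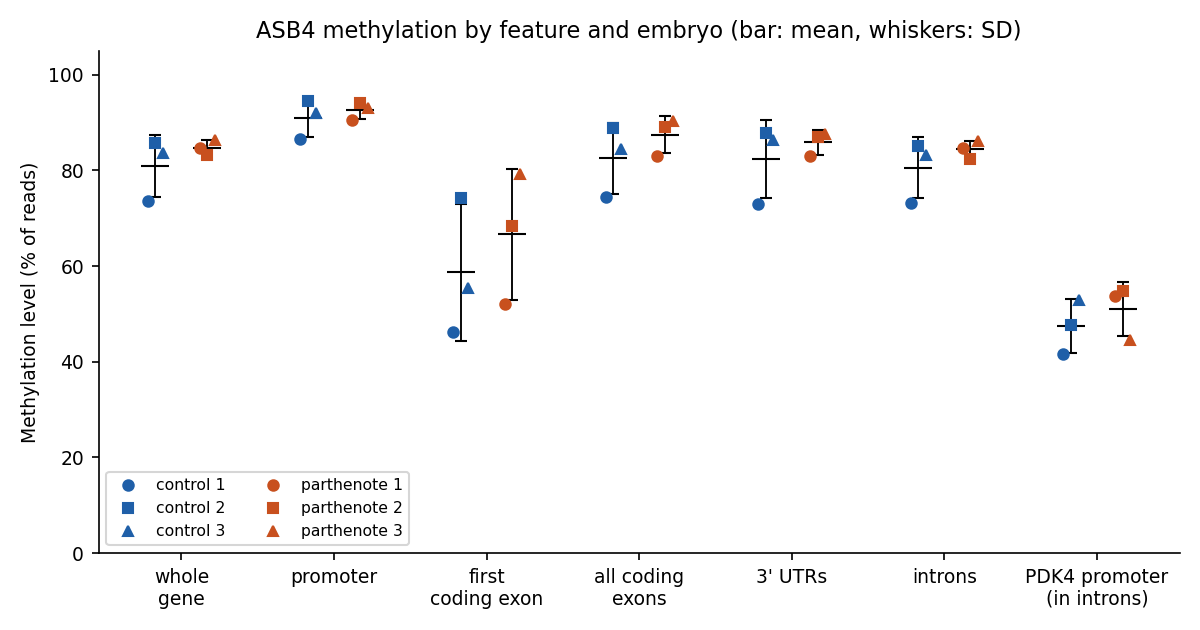
Methylation level (% of reads, vertical axis) of ASB4 features in each embryo, with blue symbols for the 3 controls and orange symbols for the 3 parthenotes; the bar is the group mean and the whiskers its SD. Control 1 is the lowest embryo in all 7 sets, the groups overlap in each, and the CpGs shared with the PDK4 promoter sit near the middle in both groups.

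None of the 3 ASB4 features was called by edgeR at an adjusted p under 0.05, where 6.25% of the 48 features of the interval were called. The count for ASB4 was also 0 at an unadjusted p under 0.05, against 8.33% of the 48 features. It was 0 with limma and with DESeq2, each of which called 3 of the 48. The genes of this region known to be imprinted in the mouse (CALCR, TFPI2, SGCE, PEG10, PPP1R9A, PON2, PON3 and ASB4) held 24 features. Of these, 3 were higher in parthenotes and 0 lower by edgeR, and all 3 belong to SGCE and PEG10. The median difference was 3.17 points over the 24 features and 3.08 points over all 48.

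Seen along the gene, each stretch between exons and each exon was described in turn. The 25 promoter CpGs, 6 coding exon groups, 4 groups of 3′ UTR CpGs, 7 intronic stretches and the downstream CpGs make 19 consecutive blocks. Block means over the 6 embryos ran from 62.6% to 92.3%. Control 1 was the lowest embryo in 18 of the 19, and in the fifth coding exon parthenote 1 was. Differences between parthenote and control means ran from -0.40 to 15.8 points, and the groups overlapped in 18 blocks. Such blocks were not formed for other genes. Of the 48 promoters, exon sets and intron sets of the interval, 12.5% had all parthenotes above all controls and 0 had all below. The block without overlap was the second coding exon, where 2 CpGs were at 76.9% ± 2.32 in controls and 88.1% ± 2.64 in parthenotes (SD, n = 3 each, 53 to 71 reads, exact permutation p = 0.1). The difference of 15.8 points was that of the sixth coding exon, which is a single CpG with 26 to 42 reads (exact permutation p = 0.2). The 15 CpGs of the third coding exon were at 88.7% ± 6.46 and 93.3% ± 0.68 (SD, n = 3 each).

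The first coding exon was the least methylated block and the one in which embryos spread most among those with at least 3 CpGs. Its 4 CpGs, 120 to 232 bp past the start, were at 46.2%, 74.3% and 55.5% in controls and 52.2%, 68.4% and 79.3% in parthenotes (109 to 146 reads). Embryos of both groups lay on either side of 60%. The means of 58.7% ± 14.3 and 66.6% ± 13.6 (SD, n = 3 each) differed by less than the spread within either group (exact permutation p = 0.5). Among the 4 CpGs the mean over embryos was 41.6% at the first, 56.02% at the second, 74.4% at the third and 74.8% at the last. The first CpG ranged from 21.7% in control 1 to 64.7% in parthenote 3.

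When the gene was divided into 10 parts of equal length, 9 had means over embryos of 79.7% to 87.3%. The seventh part, which holds the 82 CpGs shared with PDK4, was at 74.0%, and at 84.6% without them. CpGs were 8.01 and 8.18 per kb in the first and the third parts and 3.78 per kb in the eighth. From 58.1 to 67.6 kb past the start no window could be tested: 116 CpGs lie there, 24 had no read in any embryo and 6 reached 10 reads in all. These 24 are all of the ASB4 CpGs without a read.

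Windows of 500 bp gave no call within ASB4. Of 191 windows that held an ASB4 CpG and reached 30 reads per embryo over at least 3 CpGs, edgeR called 0, against 0.314% of the 1911 windows of the interval. At an unadjusted p under 0.05 there were 5 of 191, against 2.46% of all windows. Of the 191, limma and DESeq2 called 0, and of all 1911 windows they called 6 and 8. The parthenote mean was the higher one in 154 of the 191 windows (80.6%, against 78.1% in the whole interval), with a median difference of 2.71 points. Control 1 was the lowest embryo in 150 of the 191 (78.5%, against 71.5% in the whole interval). Without it the median difference was -0.67 points, against -0.61 in the whole interval. All 3 parthenotes lay above all 3 controls in 12 windows (6.28%, against 6.59% of all windows) and below them in 1 (0.524%, against 0.419%).

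The windows with the largest differences were intronic and did not pass the test. The first, at 75188000 to 75188499, was at 54.0%, 59.1% and 40% in controls and 68.1%, 64.3% and 74.0% in parthenotes. All parthenotes were above all controls there, by 17.8 points in the mean (edgeR adjusted p = 0.995), and the difference was 16.3 points at the 3 of its 4 CpGs without a sign of a sequence variant. The second, at 75219000 to 75219499, was at 58.2% ± 17.9 in controls and 73.5% ± 8.3 in parthenotes, and the third, at 75232000 to 75232499, at 70.2% ± 8.41 and 84.0% ± 13.8 (SD, n = 3 each, edgeR adjusted p = 0.995 for each). In the third the difference was 4.56 points once 2 CpGs with a variant sign were left out.

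**Figure D2:**
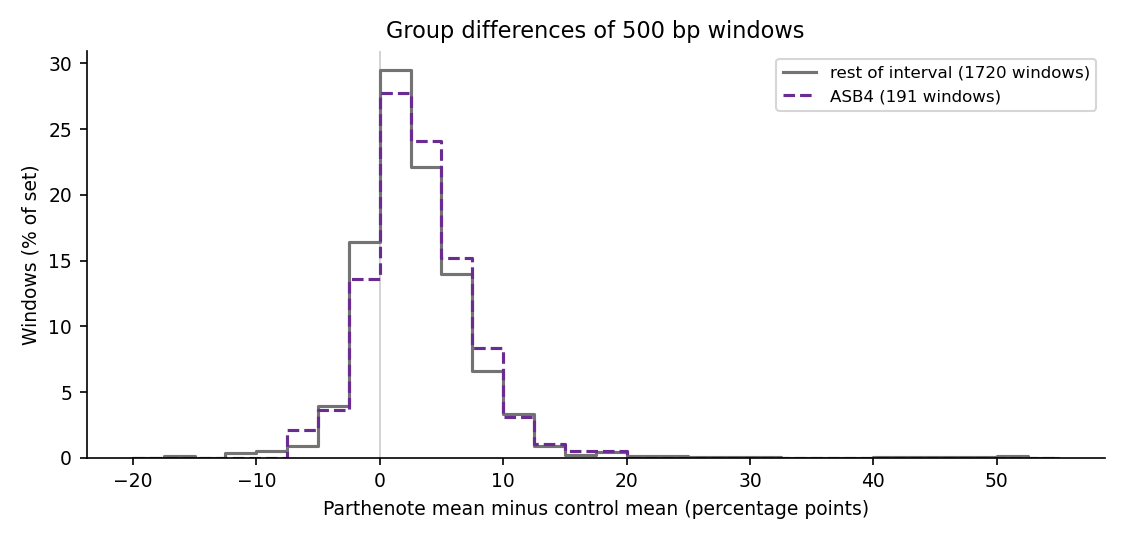
Distribution of the difference between parthenote and control means (percentage points, horizontal axis) over 500 bp windows, as a share of windows (vertical axis), for 191 ASB4 windows (dashed) and 1720 windows elsewhere (solid). The ASB4 windows lie between -5.87 and 17.8 points and lack the far right tail, which reaches 51.2 points outside the gene.

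The pattern of a stretch methylated on 1 parental copy was not found in the 191 ASB4 windows with enough CpGs and reads. Parts of the gene between those windows were not examined for it. It was defined as 35 to 65% in controls with 80% or more, or 20% or less, in parthenotes. Controls were at 35 to 65% in 16 ASB4 windows, and parthenotes were at 41.8% to 73.5% in those, so 0 windows met the definition. In the whole interval 9 of 123 such windows were at 80% or more in parthenotes. In ASB4, 8 of the 16 windows were at 35 to 65% in both groups. Limits of 30 to 70% in controls with 75% or more, or 25% or less, in parthenotes also gave 0.

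**Figure D3:**
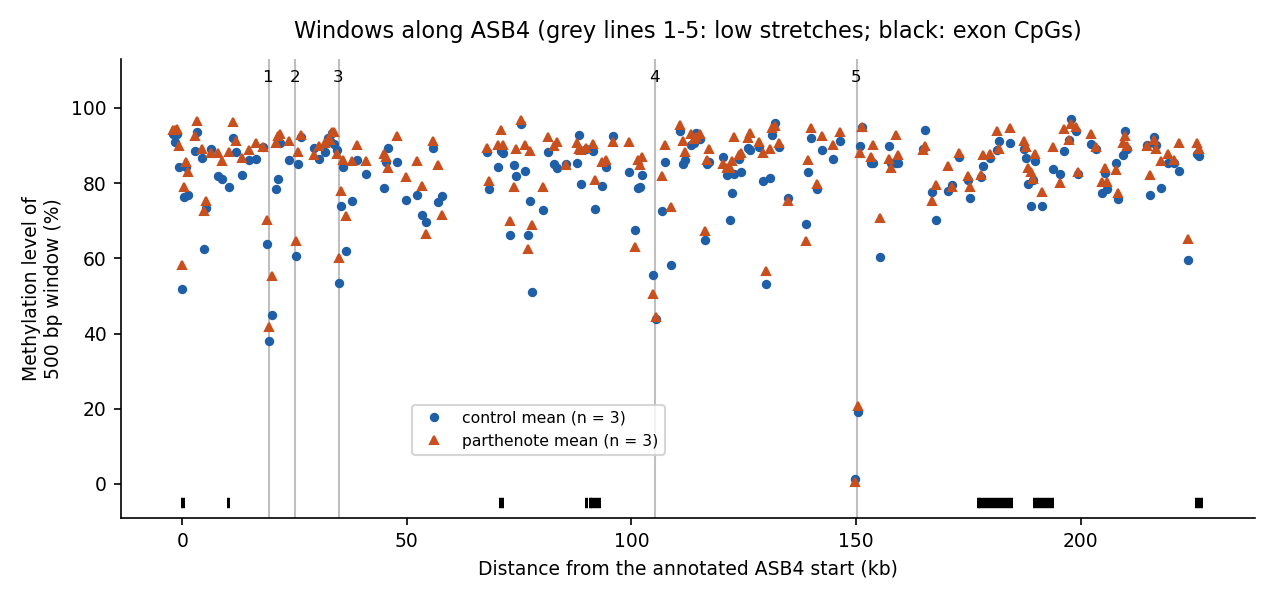
Mean methylation level (%, vertical axis) of 500 bp windows against distance from the annotated ASB4 start (kb, horizontal axis) in controls (blue circles) and parthenotes (orange triangles), with exon CpGs as black bars and the 5 low stretches as numbered grey lines. The 4 lowest windows are the same in both groups, at 19.4, 105.383, 149.9 and 150.4 kb, and the gap from 58.1 to 67.6 kb holds no window with enough reads.

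Single CpGs gave 1 call. Of 1175 ASB4 CpGs with at least 10 reads in every embryo edgeR called 1, or 0.0851%, against 0.429% of the 12359 CpGs tested. At an unadjusted p under 0.05 there were 23 (1.96%, against 3.29% of all). All parthenotes lay above all controls at 53 (4.51%, against 6.04%) and below them at 20 (1.7%, against 1.47%). The called CpG, at 75265982 in an intron, 156 kb past the start, was at 0% in all controls and at 55.2%, 0% and 80% in parthenotes 1 to 3 (13 to 30 reads, edgeR adjusted p = 0.0358). Parthenote 2 was thus with the controls and not with the other parthenotes. In the same 4 embryos the plus strand had no call and the minus strand showed 0 C among 13 to 17 reads, while parthenotes 1 and 3 had calls on both strands. A strand without a call is counted here as a variant sign. At the minus-strand cytosine, opposite-strand reads in the controls and parthenote 2 numbered 9 to 20, all G, so plus-strand reads were present there. Whether the level or the sequence differs at this CpG was not tested. It was not called by limma or DESeq2, which called 61 and 44 of all CpGs and 0 in ASB4.

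The other CpGs with large differences carried such signs as well. The CpG at 75131413 was at 0%, 44.9% and 40.5% in controls and 90.7%, 0% and 97.5% in parthenotes, and that at 75214314 at 0%, 39.5% and 21.6% in controls and 77.3%, 4.76% and 75.6% in parthenotes. At both, control 1 and parthenote 2 had no call on the plus strand, and reads of the opposite strand showed 47.1% to 63.0% A in controls 2 and 3 and 0% A in parthenotes 1 and 3. Neither was called (edgeR adjusted p = 1 for both). Without parthenote 2 edgeR called 10 of 1175 ASB4 CpGs, all higher in parthenotes and all with a variant sign, against 38 (0.307%) of all CpGs in that fit. ASB4 holds 10.3% of the CpGs of the interval, tested or not, and its share of these calls was larger. The share of variant-sign CpGs that lies in ASB4 is not given here, so no excess can be read from this. That fit also called 1 of the 191 ASB4 windows, against 7 (0.366%) of all windows. This window, at 75212000 to 75212499, held 12 CpGs, 6 of them with a sign. That window was at 80.9%, 82.6% and 73.9% in controls and 97.2%, 60.1% and 97.6% in parthenotes. At its other 6 CpGs the means were 94.1% and 96.2%.

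Levels of tested CpGs in ASB4 were mostly high, as in the rest of the interval, with fewer near 0. The median over the 1175 CpGs, each averaged over 6 embryos, was 88.3%, and in the rest of the interval it was 89.3%. Of the ASB4 CpGs, 74.8% were at 80% or more and 1.28% under 20%, against 76.4% and 3.48% elsewhere. Most tested ASB4 CpGs, 1041 of 1175, were intronic, and in introns of other genes the shares were 77.9% and 2.01%. ASB4 CpGs 10 to 292 bp upstream of the PDK4 start were near 0 too, but had too few reads to be tested. The share from 20 to 80% was 23.9% in ASB4 and 20.2% elsewhere. The median difference between groups was 2.17 points in ASB4 and 1.97 points elsewhere, and without control 1 it was -0.70 points in each.

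Stretches far below the gene's median were located next. A CpG counted as low when its mean over the 6 embryos was at least 30 points below the ASB4 median, that is at or under 58.3%, and a stretch was a run of at least 3 consecutive low CpGs at most 500 bp apart. The nearest CpGs inside and outside that limit were at 58.3% and 58.6%. In ASB4, 87 CpGs were low (7.4%, against 7.98% of the other CpGs under the same limit), of which 25 formed 5 stretches. Since the rule used the mean of all embryos, the low level is a description, and only the difference between groups was tested. All 5 stretches were intronic, and 0 of their 25 CpGs carried a variant sign, against 24 of the 62 low CpGs outside them and 26 of the 1088 CpGs that were not low. Depth was alike, with medians of 29.0 reads at low CpGs and 29.5 at the others.

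The lowest, stretch 5 in order along the gene, was the upstream side of the PDK4 start. Its 10 CpGs, at 75260474 to 75260883, were at 8.84%, 11.6% and 12.1% in controls and 11.06%, 15.2% and 7.69% in parthenotes (208 to 362 reads). The groups overlapped, with means of 10.85% ± 1.76 and 11.3% ± 3.76 (SD, n = 3 each) and a difference of 0.47 points (exact permutation p = 1). With 5 reads required in place of 10, the stretch held 21 CpGs and was at 8.52% ± 1.45 against 9.53% ± 2.5 (SD, n = 3 each). All 10 CpGs are annotated to the PDK4 promoter as well as to an ASB4 intron. The rise on the outer side was steep: the 22 PDK4 promoter CpGs within 500 bp of the PDK4 start were at 2.38% ± 1.69 in controls and 1.1% ± 1.46 in parthenotes. The 8 from 500 to 1000 bp were at 38.0% ± 0.93 and 38.4% ± 7.97, and the 17 beyond 1000 bp at 94.1% ± 2.2 and 94.9% ± 1.77 (SD, n = 3 each). The alike means of the 8 join differences in both directions. At 768 bp controls were at 4.23% and parthenotes at 31.7%. At 824, 836 and 943 bp controls were at 79.4%, 71.1% and 87.9% and parthenotes at 60.6%, 58.5% and 79.5%. The groups did not overlap at 768 and 836 bp. The CpG at 768 bp was too shallow to test, and edgeR did not call those at 824, 836 and 943 bp. The 47 together were at 47.4% ± 5.66 and 51.0% ± 5.68, a middle level that joins a nearly unmethylated and a nearly fully methylated part in both groups.

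**Figure D4:**
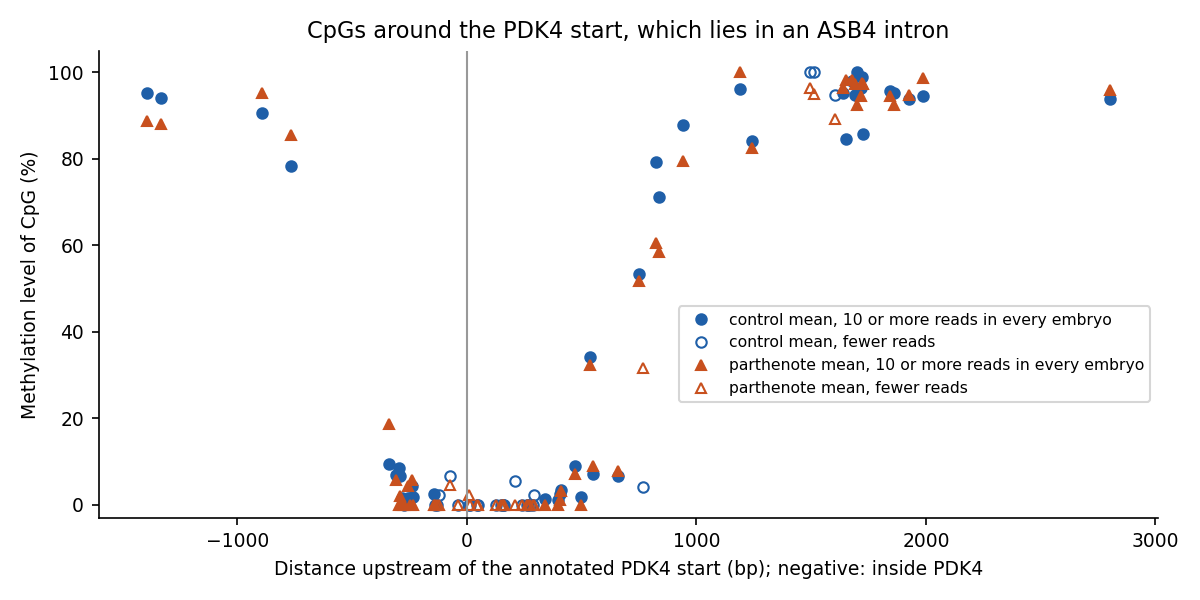
Mean methylation level of single CpGs (%, vertical axis) against distance upstream of the PDK4 start (bp, horizontal axis) in controls (blue) and parthenotes (orange), open where an embryo had fewer than 10 reads. Levels are near 0 on both sides of the start and rise between 500 and 1000 bp upstream in both groups. The open pair at 768 bp, at 4.23% and 31.7%, carries a variant sign and was not tested. It rests on 5 reads in control 3 and 20 to 29 in the other embryos, with controls at 0% to 7.69% and parthenotes at 30.8% to 33.3%.

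The other 4 stretches lay deep in ASB4 introns, and embryos spread widely in each. Stretch 1, 19.1 kb past the start at 75129437 to 75129726, held 4 low CpGs at 31.96%, 17.01% and 35.9% in controls and 47.5%, 31.3% and 25.9% in parthenotes (97 to 147 reads, Wilson intervals within 9.65 points). Stretch 2, at 75135404 to 75135578, held 3 CpGs at 40%, 9.57% and 34.8% in controls and 30.4%, 25.5% and 16.3% in parthenotes. In both, control 2 was the lowest embryo. Stretch 2 was uneven inside: its 3 CpGs had means over embryos of 5.4%, 18.9% and 56.9%.

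Stretch 3, at 75145126 to 75145510, was the least low. Its 3 CpGs were at 40.9%, 50.7% and 47.4% in controls and 32.8%, 58.3% and 66.0% in parthenotes (64 to 97 reads). Parthenotes spread on both sides of the controls. Stretch 4, 105.025 kb past the start at 75215392 to 75215775, held 5 CpGs at 26.9%, 51.1% and 32.4% in controls and 24.6%, 38.5% and 46.7% in parthenotes (88 to 139 reads). It lies 2.14 kb inside the annotated span of the noncoding gene LOC106504960, whose strand the tables do not give. The stretch at PDK4 lies in the same span, 47.2 kb from that edge.

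No stretch separated the groups. Differences of stretches 1 to 4 were 6.61, -4.04, 6.03 and -0.19 points, with exact permutation p of 0.6, 0.7, 0.6 and 1. Leaving out single embryos moved these differences. That of stretch 1 was 0.33 points without parthenote 1, 0.97 without control 2, 10.4 without control 3 and 11.102 without parthenote 3. That of stretch 2 was -13.3 points without control 2 and 1.89 without control 1, that of stretch 3 was 15.8 without parthenote 1 and -0.77 without parthenote 3, and that of stretch 4 was 6.97 without control 2 and 5.79 without parthenote 1. Control 1, the lowest embryo in 18 of the 19 blocks, was the lowest in 0 of the 5 stretches. The median SD over the 6 embryos was 14.4 points at all 87 low CpGs, inside and outside the stretches, and 6.89 at the others. Of these low CpGs 24, all outside the stretches, carry a variant sign, against 26 of the 1088 others. Binomial counting error is itself larger at middle levels than near full methylation. The part of counting error or of variant-sign CpGs in this was not tested.

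The surroundings of the stretches were not alike. Tested ASB4 CpGs within 1000 bp of stretches 2 and 3 were at 86.3% and 84.7% on average. Beside stretches 1 and 4 the averages were 67.6% and 60.1%. Stretch 5 had 13 such CpGs, all on its outer side, at 89.4%. On its PDK4 side the 12 tested CpGs within 1000 bp, none of them annotated to ASB4, were at 3.4% on average and at most 14.1%. Apart from the stretches, 8 pairs of adjacent low CpGs were found, and the first 2 CpGs of the first coding exon were both low.

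**Figure D5:**
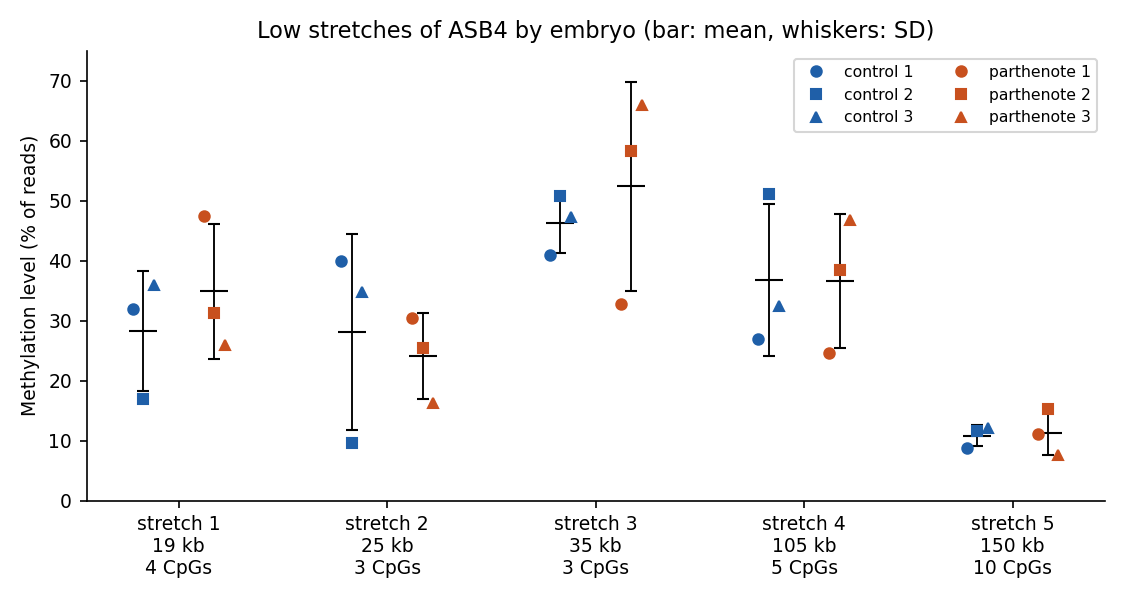
Methylation level (% of reads, vertical axis) of the 5 low stretches in each embryo, with controls in blue and parthenotes in orange, the bar at the group mean and whiskers for the SD; the labels give the distance from the ASB4 start and the number of CpGs. The groups overlap in every stretch, and the stretch at PDK4 is both the lowest and the one with the least spread, from 7.69% to 15.2%.

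Set against the median of the other genes of the interval, ASB4 was higher at its annotated promoter and its exons. In each embryo the ASB4 level was compared with the median of the same feature over the other genes, and the 6 differences were tested with a 2-sided exact sign-flip permutation test, adjusted over the 3 features. The smallest p this allows is 0.0313. Such a p covers how steadily the difference recurs over the 6 embryos, and not how unusual ASB4 is among the genes. The promoter was 36.5 ± 7.31 points (SD, n = 6) above the median of 16 other promoters and higher in 6 of 6 embryos (p = 0.0313, adjusted p = 0.0469, exact permutation test). The mean level of each of those 16 was below that of ASB4, the nearest being LOC100738575 at 91.1% with 4 CpGs, then PON3 at 79.8%. This rank is that of the promoters as annotated. Redrawn to span 1000 bp before and 500 bp after the start, the ASB4 promoter averaged 76.5%, and redrawn promoters were not compared between genes. Exons were 8.54 ± 3.13 points above the median of 15 genes, also in 6 of 6 embryos (adjusted p = 0.0469, exact permutation test). Of those 15 genes 4 had a mean exon level above that of ASB4 and 11 below. Introns were 1.02 ± 1.44 points above the median of 14 genes in 5 of 6 embryos (adjusted p = 0.156, exact permutation test). PDK4 is among these genes, and with the CpGs shared with PDK4 left out of ASB4 the intron difference was 1.81 points. With reads pooled over the other genes in place of their median, the difference was 42.2 points for promoters, 13.5 for exons and -1.17 for introns.

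The genes with intron levels closest to ASB4 over the 6 embryos were CALCR, GNGT1 and PON3, with mean absolute differences of 0.67, 0.96 and 2.23 points among 14 genes. CALCR encodes the calcitonin receptor, GNGT1 a G protein gamma subunit and PON3 a paraoxonase. Their introns were at 82.0%, 82.8% and 84.7% on average, against 82.5% for ASB4, and their lowest embryos were at 72.7%, 73.6% and 76.1%. PDK4 introns were at 87.2%, which ranked seventh in likeness, but their 35 CpGs are all ASB4 intron CpGs as well.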

How the data were processed

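Per the file headers, the authors deposited for each cytosine the count of C reads and of C-or-T reads, opposite-strand G and G-or-A counts, and an expected count, the C-or-T count scaled by the opposite-strand G share. The fraction in the deposited tables is C over that expected count. The submitters' processing notes name BSMAP 2.87 and Sscrofa11.1; trimming, duplicate removal and conversion rate are not given in the sources used here. Raw counts were used, over 380163 to 406443 C-or-T reads per embryo. Methylated and unmethylated counts were tested with edgeR 4.0.16 (R 4.3.3; quasi-likelihood, a coverage term per embryo) over all CpGs (at least 10 reads in every embryo), 500 bp windows, or features (both with 30 reads per embryo over at least 3 CpGs), with Benjamini-Hochberg adjustment over each table. DESeq2 1.42.0 and limma 3.58.1 (log2 ratio of counts with 1 added) were alternatives. Levels were compared by exact permutation (scipy 1.17.1). Wilson intervals are at 95%. Positions of genes are RefSeq's for the same build. A variant sign is, in any embryo, a strand without a call or, at 10 or more reads, an opposite-strand A share of at least 20%. The tests were checked on simulated data. Expected counts served only as an alternative denominator and were rounded for it. The gene and lists were chosen with earlier results of these data known. By rule the text names the called CpGs, all low stretches, the 3 windows and CpGs with the largest differences and the 3 genes with the closest intron levels; the division into 10 parts, the parts of both promoters and the first coding exon were singled out later.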

Additional observations from a re-analysis of the deposited data

How the results depend on the processing

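Under the alternatives 158 values were computed again, and 123 of them changed neither direction nor call or, where they are counts, by less than 1.5 times. The alternative without PDK4 CpGs was added after seeing the data. The count of 1 called CpG became 0 without variant-sign CpGs, with DESeq2, with limma and with 20 reads required, a table that this CpG cannot enter, and the count of 5 low stretches became 11 at 20 points below the median, 3 at 40 points and 2 with runs of 5 CpGs. The difference of ASB4 introns from other genes was -1.17 points with pooled reads. Over the fits that omit 1 embryo, the group difference was -0.70 to 3.31 points for the promoter and -0.69 to 6.71 for exons, and 0.33 to 11.102, -13.3 to 1.89, -0.77 to 15.8, -5.25 to 6.97 and -1.47 to 2.28 in low stretches 1 to 5. In the same way 0 to 10 CpGs and 0 to 1 windows were called. The differences from other genes were 34.9 to 38.4 points for promoters and 7.75 to 9.62 for exons; neither can reach the threshold with 5 embryos, where the smallest unadjusted p is 0.0625. With the replicate number as a block, the feature values had edgeR adjusted p of 0.609, 0.584 and 0.677 (promoter, exons, introns), 1 CpG and 0 windows were called, and no call changed. Deviations of same-numbered embryos correlated at 0.19, 0.19 and -0.28 over 1911 windows, and those of unlike-numbered embryos at -0.48 to 0.44. With so few embryos these values cannot decide whether the numbers pair the embryos. Of the 275 CpGs too shallow to test, 170 carry a variant sign, which a strand without reads also gives.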

Other observations

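Signs of a sequence variant were unevenly spread over the embryos within ASB4. At the 50 tested ASB4 CpGs with such a sign, opposite-strand reads were mixed (20% or more A) at 29, 18 and 17 CpGs in controls 1 to 3 and at 0 in each of the 3 parthenotes. A strand had no call at 13, 4 and 1 of them in the controls and at 0, 24 and 0 in the parthenotes. Parthenotes 1 and 3 thus showed neither sign at any of the 50, and parthenote 2 showed no call at 24 of them, 12 of which had no call in control 1 as well. Mixed reads were seen in a control and in no parthenote at 41 CpGs. Such counts are not given here for the rest of the interval, so they do not show whether ASB4 stands apart. Counted per CpG and embryo, the median methylation level was 0% where a strand had no call (42 cases), 41.5% where reads were mixed (64 cases) and 88.2% where neither sign was present (194 cases). Cases of 1 embryo share its library and its DNA, and no test was made.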
